A study of Mus musculus with 7 samples.

Results

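Sodium, chloride, bicarbonate and protons are moved across the cells of the kidney by a small number of gene families, and 72 such genes were followed here in the whole kidneys of mouse embryos at E15.5. They are the rows of the deposited table, out of 16167 genes, whose symbols place them in the Slc4, Slc8, Slc9, Slc12, Slc24, Slc26, Na,K-ATPase (Atp1), V-ATPase (Atp6v) or epithelial sodium channel (Scnn1) families. The rule uses names only, though it was written with earlier results of these libraries known, and 1 further Slc12 gene was left out. Matching on names also took in 4 genes that are not transporters: Slc4a1ap, an adaptor protein gene, Slc9a3r1 and Slc9a3r2, whose products are scaffolds that bind transporters at the membrane, and Atp6v0c-ps2, a pseudogene. The mutant group holds 4 libraries from Six2-Cre; Irx3/5(loxP/loxP) embryos, in which Cre recombinase acts in the Six2 lineage, that is in nephron progenitors and their descendants but not in the ureteric tree. The control group holds 3 libraries from Irx3/5(loxP/+) littermates whose labels name no Cre, so the deletion and the Cre transgene cannot be told apart. Irx3 and Irx5 are Iroquois homeobox transcription factor genes. Kidneys were taken as whole organs, so a lower level of RNA can reflect fewer cells of a type or less RNA per cell, and these cannot be told apart.

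As background, the Na,K-ATPase of the basolateral membrane keeps sodium low inside tubule cells, and the other carriers use that gradient. In the proximal tubule, sodium enters through the sodium-proton exchanger encoded by Slc9a3, and bicarbonate leaves through Slc4a4. The distal convoluted tubule takes up sodium chloride through Slc12a3, and the collecting duct takes up sodium through the channel built from the Scnn1 subunits. Intercalated cells, scattered in the connecting tubule and collecting duct, secrete acid or base with the V-ATPase and with chloride-bicarbonate exchangers of the Slc4 and Slc26 families. Most V-ATPase subunits are needed in every cell, where the pump acidifies lysosomes and endosomes, while a few isoforms are used by acid-secreting epithelia.

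Levels are FPKM as the authors deposited them, that is fragments per kilobase of gene scaled to library depth, given as mean ± SD (n = 3 controls, n = 4 mutants). Values of single libraries follow the order of their replicate numbers, 1 to 3 for controls and 1 to 4 for mutants. Depth, as recovered from the table, was 40511920 to 69028943 reads. No label tells whether libraries came from separate embryos, and the p-values then cover only the scatter among these 7 libraries, which may be technical. Of the targeted genes, Irx3 stood at 12.7 to 14.7 FPKM in controls and at 3.98 to 6.75 FPKM in mutants, and Irx5 at 1.36 to 1.59 and 0.895 to 2.05 FPKM. The labels do not give the deleted parts, so neither level checks the deletion by itself. Of the cell type markers read below, none that was found in the table was at 0 in any library.

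By limma, the linear model used here on log2(FPKM + 1), no member passed. Of the 72 members, 54 reached 1 FPKM in at least 3 libraries and were tested; 0 had an adjusted p under 0.05 and 12 had an unadjusted p under 0.05, as had 1850 of the 13466 genes tested. Over those 13466 genes, limma called 1.53% changed. The authors' deposited table, a DESeq2 test of counts that covers all 72, called 14 members lower and 2 higher in mutants at an adjusted p under 0.05. The same table called 3.74% of its 16153 genes with a p-value lower and 1.75% higher. A count model run here, limma-voom on the recovered reads with no minimum level, called 5 members lower and 0 higher, where it called 1.29% of all genes lower. These 5 were Slc9a3, Slc12a3, Atp6v1c2, Atp6v1b1 and Atp6v1a, with adjusted p from 0.014 to 0.0488 by limma-voom. The number rested on which libraries were used. Leaving out control replicate 1, 2 or 3 gave 1, 0 or 6 lower members, and leaving out mutant replicate 1, 2, 3 or 4 gave 11, 1, 2 or 0. Below, a member is called lower or higher by the authors' deposited table unless another test is named, and limma with its minimum of 1 FPKM on all 7 libraries called none of the members.

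All 4 mutants lay below all 3 controls for 15 of the 72 members and above them for 2. Over the 16167 genes of the table, 8.65% lay wholly below and 5.91% wholly above. The median log2 fold change in the authors' deposited table was -0.091 over the members and -0.0012 over all genes, and 44 of the 72 members were below 0. The 56 members without a call in that table had a median of -0.014. Of the 14 lower members, 10 had log2 fold changes between -1.04 and -2.68 in the authors' deposited table.

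**Figure D1:**
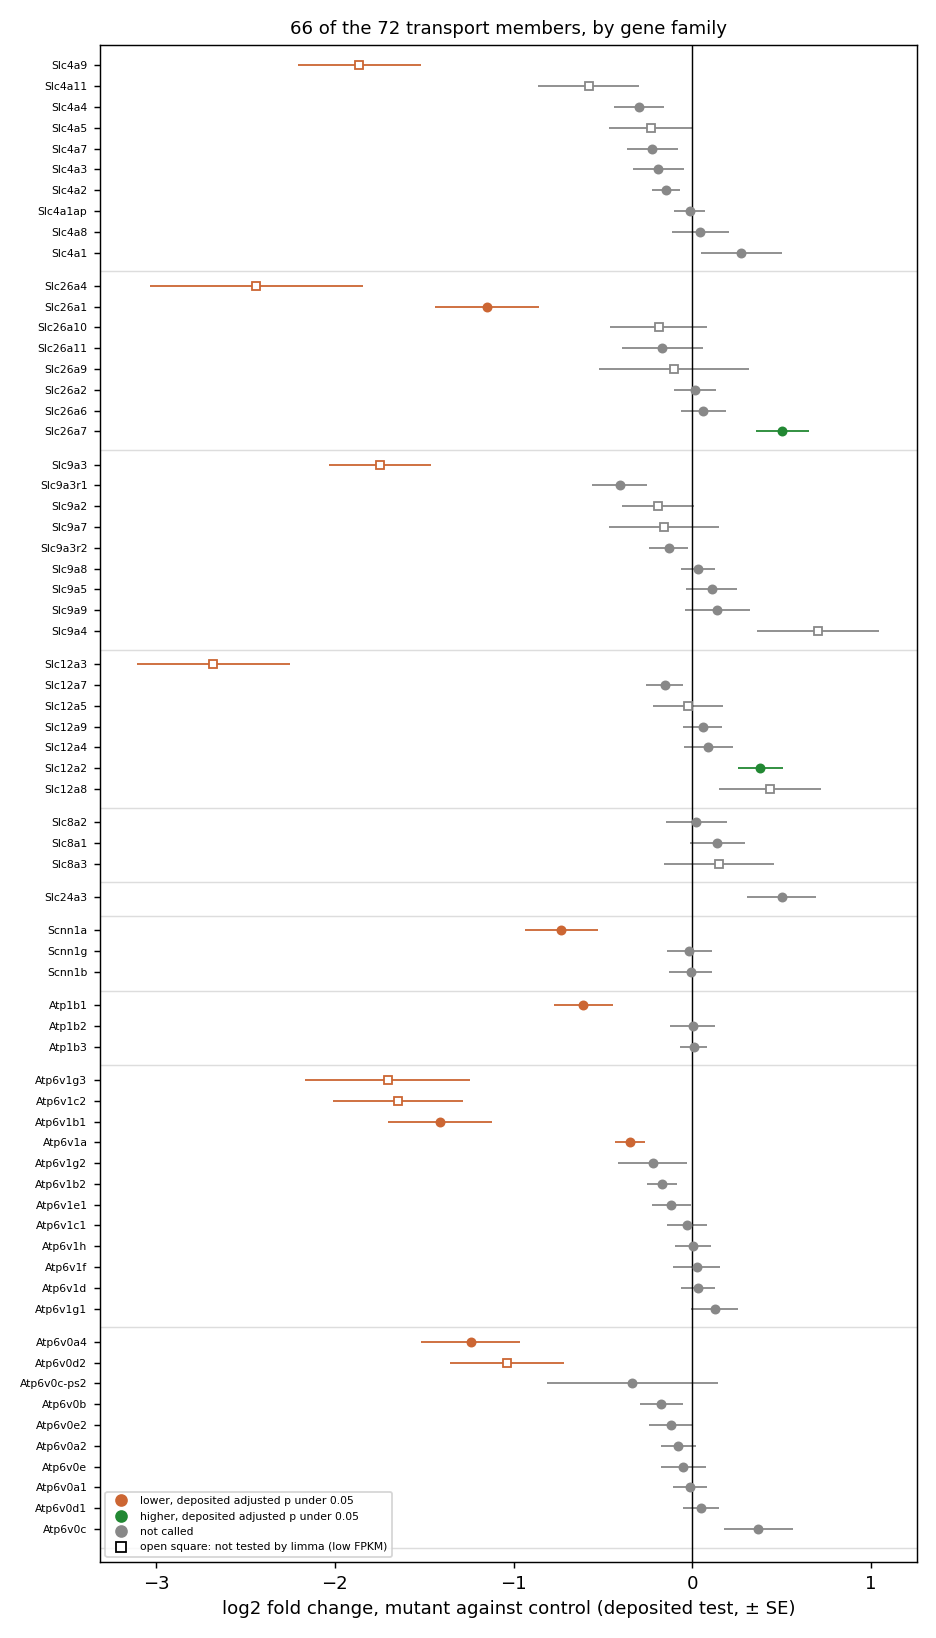
Log2 fold change of 66 of the 72 members, mutant against control, with its standard error, from the authors' deposited DESeq2 table, grouped by family; colours mark calls at an adjusted p under 0.05, and open squares mark members too low for the limma test. Most families sit around 0 with 1 to 4 members far to the left; the 2 higher calls are Slc26a7 and Slc12a2.

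To show what lies at the starts of the members that were called together, the 250 bases before the annotated start were read for the 16 called members. RefSeq promoter windows on GRCm38.p6, an earlier build than the mm39 of the deposited table, were matched for 10 of the 16, with 11 starts. Of the short motifs searched on both strands 2 are reported, namely ACANNTGT, a motif of Iroquois factors, and GTAAACA, a forkhead motif of the kind read by the intercalated cell factor Foxi1. The Iroquois motif was in 0 of the 11 windows, in 0 of the 61 windows of all matched members and in 6.31% of all 32851 windows. The forkhead motif was in 2 of the 11, in 2 of the 61 windows of all matched members and in 3.17% of all windows. The 2 windows that hold a forkhead match are shown 5′ to 3′ along the gene's own strand, ending 1 base before the start, with the match in capitals. A match describes letters only. The Atp6v1b1 window lies at chr6:83742767-83743016, plus strand, with the match 98 bases before the start. The Slc26a1 window shown lies at chr5:108674797-108675046, minus strand, with the match 67 bases before the start. Slc26a1 had another matched start, and its window at chr5:108675366-108675615 held no forkhead match.
Atp6v1b1: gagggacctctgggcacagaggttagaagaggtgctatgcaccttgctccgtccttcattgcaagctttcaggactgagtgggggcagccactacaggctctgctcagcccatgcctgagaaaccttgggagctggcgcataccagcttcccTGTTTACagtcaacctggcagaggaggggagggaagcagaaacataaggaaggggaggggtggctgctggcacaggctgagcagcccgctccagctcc
Slc26a1: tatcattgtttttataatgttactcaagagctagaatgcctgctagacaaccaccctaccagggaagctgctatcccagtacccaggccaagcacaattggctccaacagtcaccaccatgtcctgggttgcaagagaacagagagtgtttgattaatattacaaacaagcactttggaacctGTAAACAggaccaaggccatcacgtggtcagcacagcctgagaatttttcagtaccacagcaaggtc

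Entry of sodium from the tubule fluid is the first step of reabsorption, and 2 carriers of this step, Slc9a3 and Slc12a3, were lower in the authors' deposited table and by limma-voom with no minimum level. Slc9a3 (ENSMUSG00000036123.9), the apical sodium-proton exchanger of the proximal tubule, stood at 0.912, 0.811 and 0.61 FPKM in controls, against 0.28, 0.283, 0.138 and 0.227 FPKM in mutants. The groups did not overlap, and the mutant mean was 29.8% of the control mean (authors' deposited table: log2 fold change -1.75, SE 0.28, DESeq2 adjusted p = 2.22e-07). It also passed limma with no minimum level (adjusted p = 0.0152) and limma-voom (adjusted p = 0.014). The value rested on 351, 267 and 138 reads in controls and 83, 73, 35 and 64 in mutants.

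Slc12a3 (ENSMUSG00000031766.5), the thiazide-sensitive sodium chloride cotransporter of the distal convoluted tubule, had the lowest fold change of all members. It stood at 1.85, 0.994 and 0.822 FPKM in controls, against 0.359, 0.159, 0.0876 and 0.157 FPKM in mutants. Control replicate 1 was the highest library and mutant replicate 3 the lowest, and the groups did not overlap. The mutant mean was 15.6% of the control mean (authors' deposited table: log2 fold change -2.68, SE 0.43, DESeq2 adjusted p = 1.1e-07), and the limma-voom adjusted p was 0.0297. It rested on 610, 280 and 159 reads in controls and 91, 35, 19 and 38 in mutants. With limma and no minimum level, its call was lost without control replicate 2 or mutant replicate 2, 3 or 4, and that of Slc9a3 without control replicate 1 or 2 or mutant replicate 4.

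The other Slc9 members had no call. Of the 11 genes in this family by name, 1 was lower and 0 higher in the authors' deposited table. Over all genes, that table called 3.74% lower and 1.75% higher. Slc9a8, a Golgi exchanger also known from the proximal tubule, was at 6.08 ± 0.304 and 6.23 ± 0.43 FPKM. Slc9a5, Slc9a9 and the scaffold gene Slc9a3r2 were at 3.36 ± 0.229 and 3.62 ± 0.52 FPKM, 1.67 ± 0.121 and 1.84 ± 0.357 FPKM and 36.7 ± 2.46 and 33.5 ± 3.75 FPKM. Slc9a2, Slc9a4 and Slc9a7 were below 1.1 FPKM in all libraries. Among these, Slc9a4, at 0.167 ± 0.0541 and 0.275 ± 0.0394 FPKM, had the highest log2 fold change of all 72 members and missed the threshold in the authors' deposited table (log2 fold change 0.70, SE 0.34, DESeq2 adjusted p = 0.311). The scaffold gene Slc9a3r1, whose product holds Slc9a3 and phosphate carriers at the brush border, was the most abundant gene of the 11. It stood at 56.2, 62.6 and 64.1 FPKM in controls, against 54.6, 34.2, 42.4 and 52.4 FPKM in mutants, with mutant replicate 1 closest to the controls and no overlap, and missed the threshold by limma (adjusted p = 0.25) and in the authors' deposited table (DESeq2 adjusted p = 0.116).

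The other Slc12 genes included 1 of the 2 higher members. Slc12a2 (ENSMUSG00000024597.12), a sodium-potassium-chloride cotransporter of many cell types, stood at 21.0, 16.7 and 19.1 FPKM in controls, against 20.3, 24.8, 27.9 and 25.6 FPKM in mutants. Mutant replicates 2, 3 and 4 lay above all controls, and mutant replicate 1 lay within them. Its mean went from 19.0 ± 2.13 to 24.7 ± 3.17 FPKM (authors' deposited table: log2 fold change 0.38, SE 0.13, DESeq2 adjusted p = 0.0486), and limma gave an adjusted p of 0.171. The potassium-chloride cotransporter genes Slc12a4 and Slc12a7 were at 9.86 ± 1.5 and 10.5 ± 1.2 FPKM and at 7.16 ± 0.275 and 6.43 ± 0.68 FPKM. The neuronal Slc12a5 was at 0.712 ± 0.147 and 0.703 ± 0.0852 FPKM, and Slc12a9 at 4.4 ± 0.227 and 4.57 ± 0.373 FPKM. Slc12a8 was above all controls in every mutant at a low level, 0.198 ± 0.00498 and 0.267 ± 0.0277 FPKM, and missed the threshold in the authors' deposited table (DESeq2 adjusted p = 0.575).

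The Slc4 family holds bicarbonate carriers and, by name only, the adaptor gene Slc4a1ap. Of its 10 genes by name, 1 was lower and 0 were higher in the authors' deposited table, beside 3.74% and 1.75% of all genes. Slc4a9 (ENSMUSG00000024485.17), an exchanger known from the base-secreting intercalated cell, stood at 2.36, 2.44 and 0.983 FPKM in controls, against 0.703, 0.579, 0.534 and 0.307 FPKM in mutants. Control replicates 1 and 2 were at more than 2 FPKM, control replicate 3 was close to the highest mutant, and the groups did not overlap. The mutant mean was 27.6% of the control mean (authors' deposited table: log2 fold change -1.86, SE 0.35, DESeq2 adjusted p = 9.67e-06), while limma-voom gave an adjusted p of 0.0616. The basolateral sodium-bicarbonate cotransporter gene of the proximal tubule, Slc4a4, stood at 3.31, 2.89 and 2.27 FPKM in controls, against 2.15, 2.51, 2.24 and 2.28 FPKM in mutants. Control replicate 3 lay within the mutants, and the difference missed the threshold by limma (log2(FPKM + 1) change -0.20, SE 0.10, limma adjusted p = 0.456). Slc4a2, the most abundant carrier of the family and present in most cells, was at 17.4, 17.7 and 19.4 FPKM in controls, against 15.9, 16.5, 17.2 and 15.9 FPKM in mutants; the groups did not overlap but differed by little (limma adjusted p = 0.389).

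Slc4a1 encodes the anion exchanger of both red cells and acid-secreting intercalated cells, and its level was not lower. It stood at 2.4, 4.68 and 3.52 FPKM in controls, against 4.78, 3.0, 4.75 and 4.54 FPKM in mutants, with overlapping groups. Summed erythroid markers, 8 of 8 listed, ran from 2728 to 5383 FPKM in controls and from 3032 to 5719 in mutants. Among controls, the sum and Slc4a1 were both lowest in control replicate 1. Among mutants, the sum was lowest in mutant replicate 3, where Slc4a1 was at 4.75 FPKM. Slc4a1 was lowest in mutant replicate 2, where the sum was 4063 FPKM. The part of red cells in the Slc4a1 level was not tested. The adaptor gene Slc4a1ap was at 11.7 ± 0.701 and 11.6 ± 0.533 FPKM. The other Slc4 members, Slc4a3, Slc4a5, Slc4a7, Slc4a8 and Slc4a11, had mutant means at 66.8% to 103% of the control means and no call in the authors' deposited table.

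In the Slc26 family, the authors' deposited table called 2 of 8 members lower and 1 higher, beside 3.74% and 1.75% of all genes. Slc26a4 (ENSMUSG00000020651.9), which encodes pendrin, the apical chloride-bicarbonate exchanger of base-secreting intercalated cells, stood at 0.299, 0.624 and 0.211 FPKM in controls, against 0.137, 0.0344, 0.0559 and 0.0501 FPKM in mutants. It was the least abundant of the called members, with 65, 116 and 27 reads in controls and 23, 5, 8 and 8 in mutants. The groups did not overlap, control replicate 2 was the highest library, and the mutant mean was 18.4% of the control mean (authors' deposited table: log2 fold change -2.44, SE 0.59, DESeq2 adjusted p = 0.00207; limma-voom adjusted p = 0.0512). With limma and no minimum level the change was -0.36 on the log2(FPKM + 1) scale and -0.23 without control replicate 2.

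Slc26a1 (ENSMUSG00000046959.17), a sulfate and oxalate exchanger of the proximal basolateral membrane, stood at 4.1, 4.3 and 2.55 FPKM in controls, against 2.46, 1.91, 1.1 and 1.12 FPKM in mutants. Control replicate 3 was next to mutant replicate 1, without overlap, and mutant replicates 3 and 4 were the lowest. Its mean went from 3.65 ± 0.959 to 1.65 ± 0.662 FPKM (authors' deposited table: log2 fold change -1.15, SE 0.29, DESeq2 adjusted p = 0.0033; limma adjusted p = 0.109). Slc26a7 (ENSMUSG00000040569.14), a chloride-bicarbonate exchanger or chloride channel known from acid-secreting intercalated cells, moved the other way and stood at 4.1, 4.32 and 4.2 FPKM in controls, against 4.4, 6.5, 6.16 and 6.79 FPKM in mutants. All mutants lay above all controls, mutant replicate 1 only just (authors' deposited table: log2 fold change 0.50, SE 0.15, DESeq2 adjusted p = 0.020; limma adjusted p = 0.161). Slc26a6, the apical anion exchanger of the proximal tubule, was at 3.05 ± 0.216 and 3.18 ± 0.253 FPKM, and the sulfate carrier gene Slc26a2 at 4.51 ± 0.212 and 4.56 ± 0.568 FPKM. Slc26a9, Slc26a10 and Slc26a11 had no call, with mutant means at 88.4% to 93.2% of the control means.

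**Figure D2:**
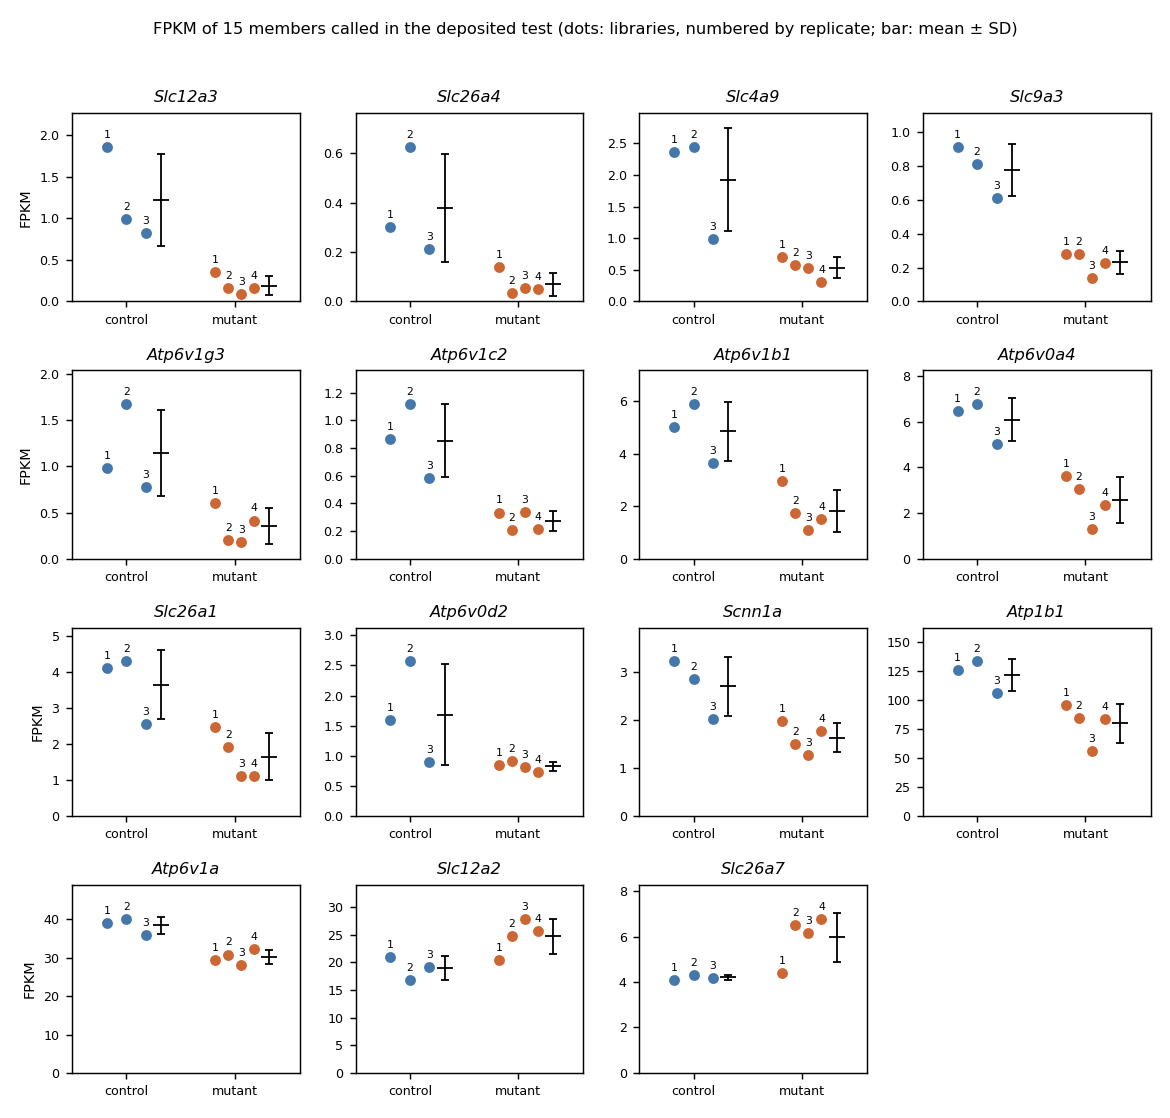
FPKM of 15 of the 16 members called in the authors' deposited table, 1 panel each with its own axis from 0; dots are libraries numbered by replicate, and the bar is the mean ± SD of 3 controls or 4 mutants. In the 13 lower members shown control replicate 3 is the lowest control, and only for Atp6v0d2 does it lie within the mutants; Slc12a2 also overlaps.

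In the Na,K-ATPase, Atp1b1 (ENSMUSG00000026576.13), the usual beta subunit of tubule cells, stood at 126, 133 and 106 FPKM in controls, against 95.4, 84.3, 56.1 and 83.2 FPKM in mutants. Mutant replicate 3 was the lowest, and the mutant mean was 65.5% of the control mean (authors' deposited table: log2 fold change -0.61, SE 0.16, DESeq2 adjusted p = 0.00733; limma adjusted p = 0.13).

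The other beta subunit genes had no call. Atp1b3, a widely expressed beta subunit, was at 57.5 ± 0.98 and 57.8 ± 3.29 FPKM, and Atp1b2 at 4.05 ± 0.594 and 4.06 ± 0.195 FPKM. The ratio of Atp1b3 to Atp1b1 FPKM was 0.433 to 0.549 in controls and 0.641 to 0.951 in mutants, without overlap.

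The V-ATPase has a cytosolic V1 sector, which splits ATP, and a V0 sector, which carries protons through the membrane. Of the 22 V-ATPase members 6 were lower and 0 higher in the authors' deposited table, beside 3.74% and 1.75% of all genes. Of these 6, 5 were the 5 isoforms listed as restricted to intercalated cells and other specialised epithelia. The isoform lists were drawn up with earlier results of the same libraries known, so this split is given for description only. None of the 6 widely expressed isoforms of the same subunits was called, and their median log2 fold change in the authors' deposited table was -0.022, against -1.41 for the 5 restricted isoforms. Whether the restricted and wide isoforms differ in response was not tested as such; the share of each subunit's RNA that came from the restricted isoform is given below.

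Atp6v1b1 (ENSMUSG00000006269.8), the B subunit isoform of intercalated cells, stood at 5.02, 5.88 and 3.65 FPKM in controls, against 2.95, 1.74, 1.08 and 1.52 FPKM in mutants. The order of the libraries put mutant replicate 1 highest and mutant replicate 3 lowest among mutants, all below the controls. The mutant mean was 37.5% of the control mean (authors' deposited table: log2 fold change -1.41, SE 0.29, DESeq2 adjusted p = 0.000114; limma adjusted p = 0.0611; limma-voom adjusted p = 0.0487). The wide isoform Atp6v1b2 went from 52.1 ± 3.66 to 46.2 ± 2.57 FPKM, a difference that missed the threshold by limma (adjusted p = 0.356). Atp6v1b1 gave 9.5%, 9.89% and 6.25% in controls and 5.65%, 3.87%, 2.3% and 3.14% in mutants of the summed FPKM of the B subunit, and the mean went from 8.55% ± 2.0 to 3.74% ± 1.42.

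Atp6v0a4 (ENSMUSG00000038600.13), the a subunit isoform of intercalated cells and the proximal brush border, stood at 6.5, 6.77 and 5.03 FPKM in controls, against 3.64, 3.04, 1.28 and 2.37 FPKM in mutants. It was the restricted isoform with the highest level, and its groups did not overlap (authors' deposited table: log2 fold change -1.24, SE 0.28, DESeq2 adjusted p = 0.000524; limma adjusted p = 0.0779). Limma passed it without mutant replicate 1 or mutant replicate 3, its highest and lowest mutant libraries, with changes of -1.17 and -0.82 on the log2(FPKM + 1) scale. Without mutant replicate 1, limma also passed Atp6v1b1, Slc26a1, Slc26a7 and Slc12a2. The share of Atp6v0a4 in the summed FPKM of Atp6v0a1, Atp6v0a2 and Atp6v0a4 was 23.8%, 25.4% and 19.5% in controls and 16.8%, 13.6%, 5.51% and 10.7% in mutants. The wide isoforms Atp6v0a1 and Atp6v0a2 were at 7.61 ± 0.381 and 7.54 ± 0.638 FPKM and at 12.9 ± 0.503 and 12.2 ± 1.14 FPKM.

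The other restricted isoforms had lower levels. Atp6v1c2 (ENSMUSG00000020566.20), of the C subunit, stood at 0.862, 1.11 and 0.582 FPKM in controls, against 0.333, 0.206, 0.34 and 0.215 FPKM in mutants (authors' deposited table: log2 fold change -1.65, SE 0.36, DESeq2 adjusted p = 0.000411; limma-voom adjusted p = 0.0321). Atp6v1g3 (ENSMUSG00000026394.6), of the G subunit, stood at 0.986, 1.67 and 0.774 FPKM in controls, against 0.60, 0.204, 0.184 and 0.413 FPKM in mutants (authors' deposited table: log2 fold change -1.70, SE 0.46, DESeq2 adjusted p = 0.00783; limma-voom adjusted p = 0.0699). The wide isoform Atp6v1c1 was at 23.3 ± 2.87 and 22.8 ± 1.75 FPKM. For Atp6v1c2 and Atp6v1g3, control replicate 2 was the highest library and the groups did not overlap. Atp6v0d2 (ENSMUSG00000028238.7), of the d subunit, stood at 1.59, 2.57 and 0.888 FPKM in controls, against 0.84, 0.905, 0.815 and 0.732 FPKM in mutants. Control replicate 3 lay within the mutants, and the call rested on control replicates 1 and 2 (authors' deposited table: log2 fold change -1.04, SE 0.32, DESeq2 adjusted p = 0.0263; limma-voom adjusted p = 0.205). With limma and no minimum level its change was -0.51 on the log2(FPKM + 1) scale and -0.28 without control replicate 2. The shares of the C and G subunits held by Atp6v1c2 and Atp6v1g3 went from 3.6% ± 1.29 to 1.2% ± 0.374 and from 1.02% ± 0.383 to 0.279% ± 0.131, without overlap, and that of Atp6v0d2 in its subunit from 3.09% ± 1.4 to 1.51% ± 0.185, with overlap.

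**Figure D3:**
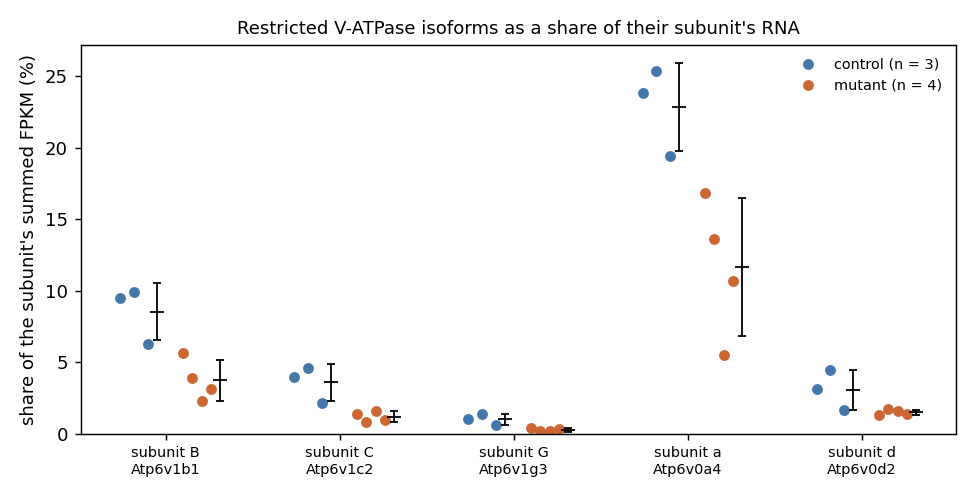
Share of each V-ATPase subunit's summed FPKM (in %) that came from its restricted isoform, for 3 controls (blue) and 4 mutants (orange); dots are libraries and bars the mean ± SD. For subunits B, C, G and a all mutants lie below all controls; for subunit d the groups overlap.

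The sixth lower V-ATPase member was Atp6v1a (ENSMUSG00000052459.14), the catalytic A subunit, which has no other isoform among the members. It stood at 39.0, 40.2 and 36.1 FPKM in controls, against 29.4, 30.9, 28.0 and 32.4 FPKM in mutants, and the groups did not overlap (authors' deposited table: log2 fold change -0.35, SE 0.08, DESeq2 adjusted p = 0.00171; limma adjusted p = 0.0569; limma-voom adjusted p = 0.0488). The other obligate V1 subunits Atp6v1d, Atp6v1e1, Atp6v1f and Atp6v1h had mutant means at 92.2% to 102% of the control means. In V0, Atp6v0b, Atp6v0d1, Atp6v0e and Atp6v0e2 were at 88.7% to 103%. Atp6v1g1, the most abundant V-ATPase member, was at 90.4, 118 and 122 FPKM in controls, against 137, 121, 104 and 119 FPKM in mutants, with overlap. The neuronal Atp6v1g2 was at 1.81 ± 0.224 and 1.56 ± 0.176 FPKM. Atp6v0c, the proton-carrying ring subunit, was at 10.003, 10.3 and 14.2 FPKM in controls, against 13.7, 17.8, 17.4 and 10.5 FPKM in mutants, and its pseudogene Atp6v0c-ps2 at 70.5, 78.8 and 47.9 FPKM in controls, against 79.2, 32.3, 26.7 and 70.1 FPKM in mutants. Mutant replicates 2 and 3 were the highest for Atp6v0c and the lowest for Atp6v0c-ps2; reads of near-identical copies can be split by the counting, so both values are uncertain.

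The epithelial sodium channel is built from alpha, beta and gamma subunits, encoded by Scnn1a, Scnn1b and Scnn1g, and only the alpha subunit was called. Scnn1a (ENSMUSG00000030340.17) stood at 3.22, 2.86 and 2.03 FPKM in controls, against 1.97, 1.5, 1.28 and 1.76 FPKM in mutants. Control replicate 3 and mutant replicate 1 were next to each other, without overlap (authors' deposited table: log2 fold change -0.73, SE 0.20, DESeq2 adjusted p = 0.0104; limma adjusted p = 0.126). Scnn1b, the most abundant subunit by FPKM, was at 14.8, 13.98 and 12.02 FPKM in controls, against 15.1, 13.9, 11.6 and 13.4 FPKM in mutants, with overlap. Scnn1g was at 9.6 ± 0.996 and 9.5 ± 1.15 FPKM. Whether the subunits differed from each other in response was not tested. The sodium-calcium exchangers had no call: Slc8a1, also the exchanger of the distal tubule and of heart muscle, was at 5.44, 4.51 and 4.34 FPKM in controls, against 4.05, 5.52, 6.39 and 5.04 FPKM in mutants, with overlap, Slc8a2 at 1.34 ± 0.221 and 1.36 ± 0.156 FPKM and Slc8a3 at 0.268 ± 0.0724 and 0.299 ± 0.0608 FPKM. The potassium-dependent exchanger Slc24a3, the only Slc24 gene in the table, stood at 1.55, 1.52 and 1.23 FPKM in controls, against 1.83, 2.49, 2.27 and 1.54 FPKM in mutants, with overlap, and missed the threshold by limma (adjusted p = 0.295).

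Grouped by the segment or cell type in which the products are known to act, 8 of 13 members of the collecting duct were lower and 1 was higher in the authors' deposited table. The same table called 3 of 4 members of the distal and connecting tubule lower, and 2 of 5 of the proximal tubule. Of 4 neuronal and 3 muscle members it called 0, and limma had 0 of the 1 and 2 tested at an unadjusted p under 0.05. These groups were drawn up with earlier results of the same libraries known, and they are set beside the shares of all genes called lower (3.74%) and higher (1.75%) for description only.

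Markers of 12 cell types were summed in each library, and the lists that carry the members did not all move one way. The calls below stand beside 3.74% of all genes called lower and 1.75% higher in the authors' deposited table. Summed proximal tubule markers, 10 of 10 in the table, ran from 125 to 150 FPKM in controls and from 44.1 to 98.2 in mutants; 6 of the 10 were lower in the authors' deposited table. Summed intercalated cell markers, 7 of 8 in the table, ran from 17.4 to 24.7 and from 10.6 to 16.6 FPKM. The authors' deposited table called 5 of the 7 lower. Of these 5, Foxi1 and Rhcg had overlapping groups. Markers of the principal cell and ureteric tree, 8 of 8, overlapped at 159 to 164 and 153 to 191 FPKM, with 2 lower and 3 higher in the authors' deposited table. Distal tubule and loop markers, 7 of 8, were higher as a sum, 61.3 to 75.6 and 84.4 to 92.6 FPKM, with 3 of the 7 lower and 1 higher in the authors' deposited table. Most of that sum was Calb1, also known from the ureteric tree, at 36.8 to 53.3 FPKM in controls and 65.5 to 78.2 in mutants. Calb1 was the 1 higher marker. The 3 lower ones, Umod, Cldn16 and Irx1, had mutant means at 44.2%, 40.2% and 62.5% of the control means. The median log2 fold change of the 7 in the authors' deposited table was -0.18, so the higher sum does not describe the list as a whole. Markers of the podocyte, a nephron cell outside the tubule, ran from 128 to 141 and from 75.9 to 94.1 FPKM, and all 6 were lower in the authors' deposited table. Nephron progenitor markers, 6 of 6, were also lower as a sum without overlap, at 147 to 165 and 116 to 136 FPKM. The authors' deposited DESeq2 test called 2 of the 6 lower, Cited1 and Meox1, with mutant means at 22.1% and 49.4% of the control means. It called Crym higher, from 38.0 ± 1.95 to 51.6 ± 1.07 FPKM. For Six2, Eya1 and Osr1 the groups overlapped and there was no call, so this list did not move one way. Endothelial markers, 5 of 5, lay higher without overlap, at 118 to 126 and 131 to 140 FPKM, as did macrophage and immune markers, 6 of 6, at 21.6 to 22.6 and 23.2 to 26.7 FPKM. Summed muscle markers, 8 of 9 in the table, came to 181 FPKM in control replicate 1, against 57.8 to 86.0 in the other 6 libraries. The part of cell numbers in the levels of the transport members was not tested.

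The libraries kept a similar order across the 14 lower members. Control replicate 3 was the lowest control for 14 of 14. Mutant replicate 1 was the highest mutant for 10 of 14, and mutant replicate 3 the lowest for 10 of 14. As a median over the 14, control replicates 1 to 3 stood at 105%, 114% and 72.4% of the control mean. Mutant replicates 1 to 4 stood at 56.1%, 43.2%, 29.0% and 33.7% of it. The 14 were chosen by their calls in these same libraries, so mutant medians below the controls follow from that choice. All 14 were read in the same libraries, so their shared order is not 14 separate observations. Embryonic beta-globin Hbb-y, which gives way to adult globin as the embryo ages, was at 1.34%, 1.39% and 3.45% of adult Hbb-bs FPKM in control replicates 1 to 3 and at 1.38%, 1.53%, 10.5% and 2.24% in mutant replicates 1 to 4. It was thus highest within each group in the library that was lowest in most lower members, and its part in these levels was not tested.

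**Figure D4:**
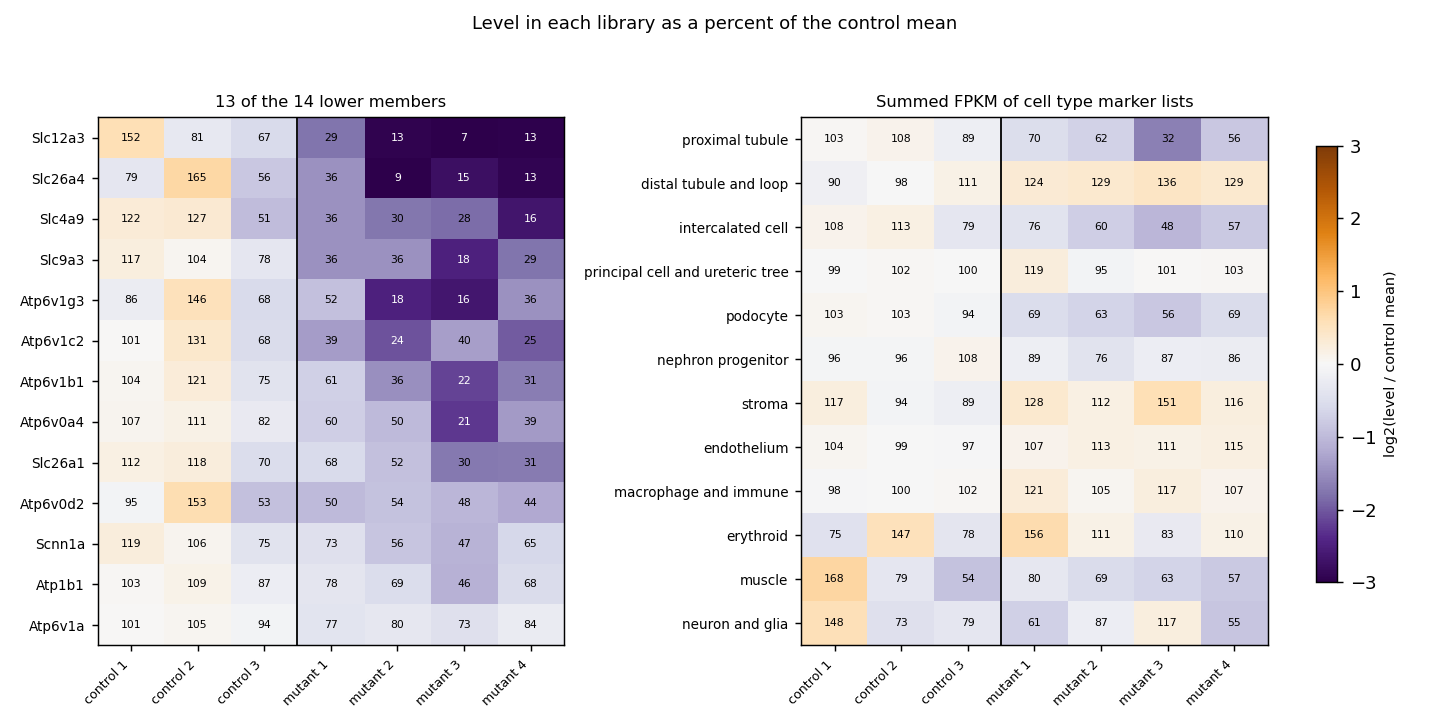
Level in each library as a percent of the control mean (printed numbers; colour is log2 of the ratio to that mean), for 13 of the 14 lower members (left) and the summed FPKM of 12 cell type marker lists (right). Control replicate 3 is the lowest control in each row on the left. On the right, the summed proximal, intercalated, podocyte and nephron progenitor lists lie below all controls in every mutant. The distal and loop, endothelium, and macrophage and immune sums lie above. Most of the distal and loop sum is Calb1, and 3 markers of that list were lower in the authors' deposited table. Of the 6 nephron progenitor markers, the authors' deposited DESeq2 test called 2 lower and 1 higher.

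Partners and regulators of the carriers were read from a separate list, of which 42 genes besides the members were in the table. The authors' deposited DESeq2 test called 6 lower and 1 higher, where it called 3.74% and 1.75% of all genes. Limma tested 40 and called 1, Bsnd, where it called 1.53% of all genes tested. Bsnd, the accessory subunit of basolateral chloride channels, stood at 3.66, 4.08 and 3.74 FPKM in controls, against 2.12, 1.4, 0.63 and 1.04 FPKM in mutants (log2(FPKM + 1) change -1.11, SE 0.19, limma adjusted p = 0.038). The carbonic anhydrase genes Car12, Car14 and Car15, whose products supply bicarbonate and protons at the membrane, went from 8.71 ± 1.11 to 4.89 ± 1.36 FPKM, from 9.999 ± 0.326 to 7.12 ± 0.871 FPKM and from 2.8 ± 0.563 to 1.58 ± 0.376 FPKM (authors' deposited table: DESeq2 adjusted p = 0.00234, 0.00421 and 0.0339). Pdzk1, a brush border scaffold, went from 41.2 ± 0.962 to 24.9 ± 7.15 FPKM (authors' deposited table: log2 fold change -0.72, SE 0.20, DESeq2 adjusted p = 0.00742).

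Foxi1, the transcription factor that intercalated cells require, stood at 4.47, 6.31 and 2.47 FPKM in controls, against 2.82, 2.44, 2.2 and 2.41 FPKM in mutants. Control replicate 3 lay within the mutants (authors' deposited table: log2 fold change -0.84, SE 0.27, DESeq2 adjusted p = 0.0315; limma adjusted p = 0.276). The higher gene was Fxyd4, a small regulator of the Na,K-ATPase in the collecting duct, at 7.77, 8.99 and 8.98 FPKM in controls, against 14.7, 13.7, 9.56 and 12.4 FPKM in mutants without overlap (authors' deposited table: log2 fold change 0.55, SE 0.16, DESeq2 adjusted p = 0.0125). Of the uncalled genes of the list, 5 are given here, chosen after their values were seen. The cytosolic carbonic anhydrase gene Car2 was at 17.7 ± 3.29 and 13.7 ± 2.57 FPKM, and the kinase genes Wnk1 and Wnk4, which regulate Slc12a3, at 17.3 ± 3.31 and 16.7 ± 4.24 FPKM and 8.57 ± 1.36 and 7.78 ± 0.658 FPKM, with no call. The accessory V-ATPase subunit genes Atp6ap1 and Atp6ap2 were at 41.4 ± 2.02 and 44.1 ± 3.39 FPKM and 36.8 ± 2.68 and 38.2 ± 4.59 FPKM, with no call.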

How the data were processed

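RNA of whole kidneys at E15.5 was compared between 3 control and 4 mutant libraries, grouped by sample title; libraries were made with a directional kit, per the labels' protocols. Per the submitters' processing notes, the authors used STAR 2.6.0c, Trim Galore 0.5.0, DESeq2, FastQC 0.11.5 and HTSeq 0.6.1p2, with build mm39; the strand setting and gene lengths are not given in the sources used here. The authors deposited FPKM per library. They also deposited a normalized mean count signal, log2 fold changes with errors, a test statistic (a score), and p-values and adjusted p-values, which were copied and not recomputed; 14 genes have none. Reads were recovered from the mean count, the FPKM and a size factor per library; 100% of entries came within 0.05 of a whole number.

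Genes with at least 1 FPKM in at least 3 libraries were tested with limma 3.58.1 (R 4.3.3) on log2(FPKM + 1), trended and robust, two-sided, with Benjamini-Hochberg adjustment across all genes at 0.05. That scale understates changes of low genes. Members called by limma or in the deposited table are given library by library, with the most abundant member and the one with the smallest p of each family. Some members were counted but are not reported here by name. The pipeline was tested on simulated data. Members and lists were chosen with earlier results of these data known. The alternatives were other pseudocounts, minimum levels, scalings, weights, a replicate block, limma-voom, the deposited p and leaving out each library; limma-voom without a minimum level was added after seeing the data. Tables used Python 3.11.15 and pandas 2.3.3.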

Additional observations from a re-analysis of the deposited data

Results flagged for a closer look

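Each member's 4 mutant libraries were examined for a library far from the other 3 by Dixon's test, which marks about 1 group in 20 by chance. Of the 72 members, 1 was marked: Slc4a1, whose level in mutant replicate 2 was 3.00 FPKM against 4.54 to 4.78 FPKM in the other mutants.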

How the results depend on the processing

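The number of members called by limma, 0 higher and 0 lower, was the same with a pseudocount of 0.1, a minimum of 5 FPKM, quantile normalization, size factors, the replicate block and no trend or robust step. It was 3 lower with no filter, 2 higher and 7 lower with array weights, 1 lower by limma-voom, 2 higher and 14 lower in the deposited test, and 5 lower by limma-voom with no filter, a setting added after seeing the data. Leaving out 1 library gave 0 to 2 higher and 0 to 4 lower, with calls only without mutant replicate 1 (2 and 4) or mutant replicate 3 (0 and 1); limma-voom with no filter then gave 0 to 11 lower. Over all genes limma called 64 higher and 142 lower; this was 44 and 65 with a pseudocount of 0.1, 31 and 29 at 5 FPKM, 433 and 869 with array weights, 282 and 604 in the deposited test, and 4 to 113 higher and 7 to 373 lower with 1 library left out. Same-numbered deviations from the group means correlated at -0.156, 0.0276 and 0.0980. Control replicate 1 was closest to mutant replicate 2 (0.123), control replicate 2 to mutant replicate 4 (0.141) and control replicate 3 to mutant replicate 3 (0.0980). Deviations within a small group depend on each other, so these values cannot decide whether the replicate numbers pair the libraries. With the replicate block, 1 gene was higher and 1 lower, and 0 members were called. Of 347 values of 23 members under the alternatives, 5 changed direction: Atp6v1g1 ranged from -0.0062 (without control replicate 1) to 0.21 with 1 library left out, and Scnn1b from -0.088 to 0.056, above 0 without control replicates 1 (0.050) and 2 (0.013) and mutant replicate 3, and at 0.014 with quantile normalization. The starting value was that of limma for members it tested, and that of the deposited test for members too low for limma. In 28 values, all of members tested by limma, the member came to pass the threshold. In 46, all of members too low for limma, a call of the deposited test was lost under limma or limma-voom with no filter. A change of test is thus part of these 46, and the cause was not tested. Members under 1 FPKM rest on as few as 5 reads in a library, which limits the precision of their fold changes.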
